A study of Mus musculus with 15 samples.

Results

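The gene set described here holds 41 genes of blood and lymphatic endothelium. Its members were listed by symbol for their known expression or role in vessels, and every array probe whose RefSeq transcript maps to one of these symbols was taken. Of the 41 genes, 40 had a probe, out of 34401 genes measured in the lungs. Of these 34401, 19289 had a gene symbol and each of the others was a single unnamed probe. Robo4 had no such probe, and its expression is not analysed here. The 40 genes were covered by 54 probes, of which 52 passed the filter on dim probes. Where several probes passed, the value of a gene is that of the probe with the highest mean.

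Lungs came from female Crlj:CD1(ICR) mice, 11 weeks old, that ate powdered diet with 0 (control), 20, 500, 2500 or 5000 ppm permethrin, a pyrethroid insecticide, for 7 days. There were 3 mice per diet and 15 in all, and total RNA of whole lung from each mouse was labelled with Cy3 and read on its own 1-colour Agilent array. The labels call the 3 mice of a diet biological replicates. Levels are log2 processed signals minus the 75th percentile of the same array, so that 0 is the signal below which 75% of that array's probes lie, and a difference of 1 is a doubling.

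Endothelial cells line blood and lymph vessels. Growth factor receptors such as the VEGF and angiopoietin receptors keep the lining alive and quiescent, junction proteins seal it, and adhesion molecules on its surface let leukocytes pass. In the mouse lung, endothelium is abundant because capillaries wrap every alveolus, and one capillary type carries Car4 while another carries Aplnr. Lymphatic vessels, which drain fluid, carry Prox1, Flt4 and Lyve1.

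The mean log2 level over the 40 measured members was between 2.47 and 2.81 on the 15 arrays. The used probe was well above background on all 15 arrays for 39 members. The exception was Sele, which was well above background on 3 of 3 control arrays, 1 of 3 at 20 ppm, 3 of 3 at 500 ppm, 1 of 3 at 2500 ppm and 1 of 3 at 5000 ppm. No spot was saturated. Of lung markers, 9 of 9 genes of alveolar type 2 cells and 8 of 8 of alveolar type 1 cells were measured, with list means of 4.78 to 5.58 and 5.04 to 5.72 on the 15 arrays. In bulk lung RNA, fewer cells of a type and less RNA per cell cannot be told apart.

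A few arrays stood apart from the others over all genes. Mouse 1 of the 20 ppm diet and mouse 1 of the control diet had scores of -79.32 and -87.96 on the second principal component (17.9% of the variance), where no other array was below -24.30. Mouse 3 of the 500 ppm diet and mouse 3 of the 2500 ppm diet had 161.28 and 65.84 on the first component (36.5%), where no other array was above 19.31. These last 2 arrays are also the only ones whose header gives an extraction status of 1. On 2500 ppm mouse 3 the median coefficient of variation of replicate spots was 8.41%, against 2.63% to 3.13% on the other arrays, and 274 spots were marked as outliers, against 104 to 145. Per the file headers, the 20 ppm and control arrays and 500 ppm mice 1 and 2 shared slide 1, and 500 ppm mouse 3 and all 2500 and 5000 ppm arrays shared slide 2. Slide therefore cannot be told apart from the 2500 and 5000 ppm diets against control, except through 500 ppm mouse 3. The share of spots well above background ran from 72.0% to 87.6%.

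**Figure D1:**
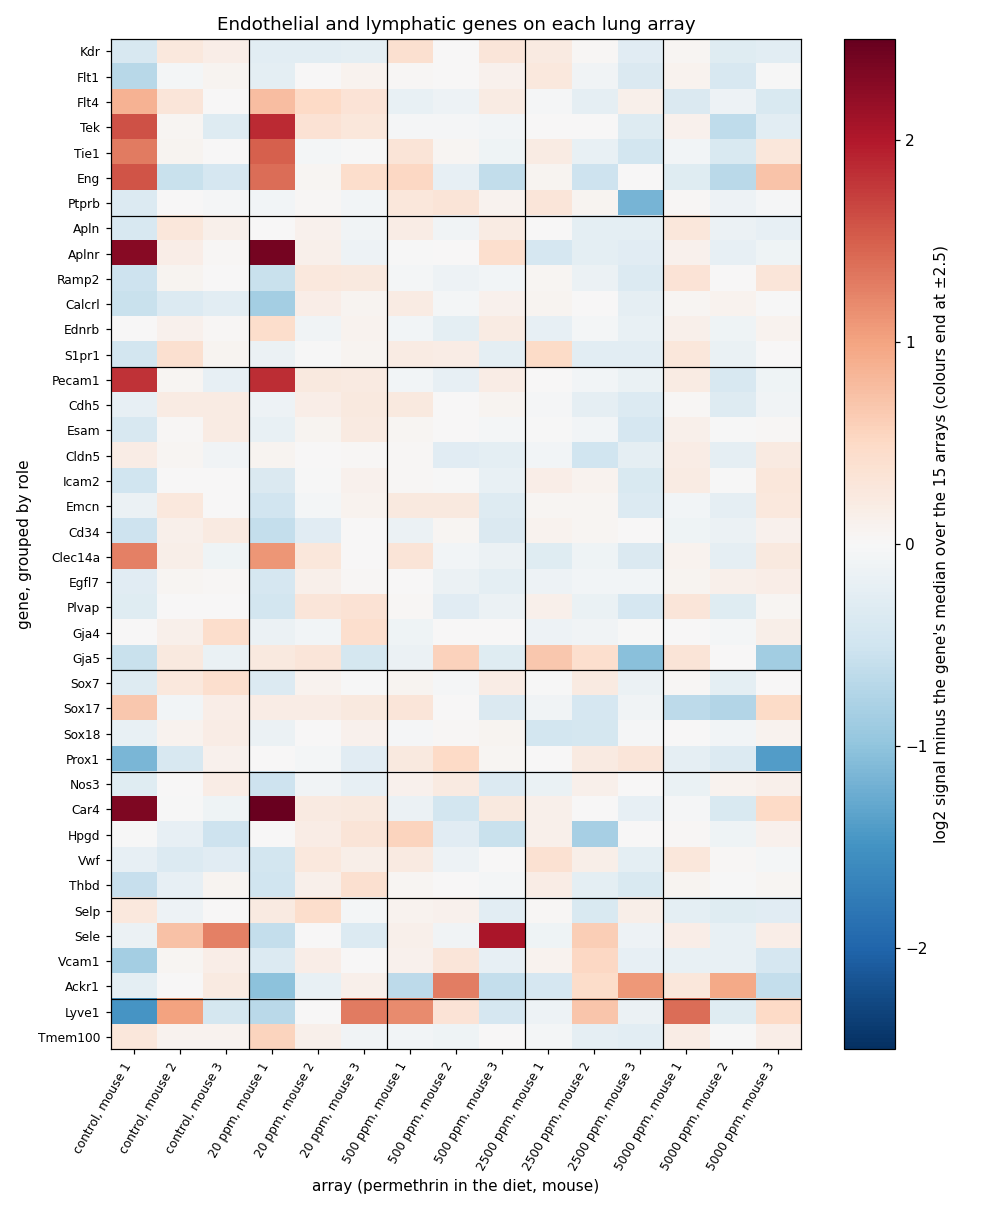
Log2 signal of each of the 40 measured genes (down) on each of the 15 arrays (across), minus the gene's median over the arrays, with lines between diets and between roles. Tek, Tie1, Eng, Aplnr, Pecam1, Clec14a and Car4 are high on 20 ppm mouse 1 and control mouse 1.

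A set of 4 growth factor receptors (Tek, Tie1, Eng and Flt4) was higher on 20 ppm mouse 1 and control mouse 1 than on any of the other 13 arrays, and their promoter windows are shown for that reason. Each window runs from 250 bases before to 50 bases after the annotated start and is written 5′ to 3′ on the gene's strand, from RefSeq on GRCm38.p6. The windows lie at chr4:94739039-94739338 (plus strand) for Tek, chr4:118489800-118490099 (minus strand) for Tie1, chr2:32646345-32646644 (plus strand) for Eng and chr11:49609429-49609728 (plus strand) for Flt4. Capitals mark the ETS motif AGGAAG (or CTTCCT on the other strand) and the GATA motif GATAAG (or CTTATC), named for families of transcription factors known to act in endothelium.
Tek: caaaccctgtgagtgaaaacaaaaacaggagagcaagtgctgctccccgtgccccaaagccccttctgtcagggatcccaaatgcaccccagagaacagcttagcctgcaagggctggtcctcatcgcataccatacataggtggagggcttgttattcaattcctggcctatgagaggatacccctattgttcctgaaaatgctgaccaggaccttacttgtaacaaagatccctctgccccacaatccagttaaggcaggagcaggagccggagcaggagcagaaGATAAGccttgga
Tie1: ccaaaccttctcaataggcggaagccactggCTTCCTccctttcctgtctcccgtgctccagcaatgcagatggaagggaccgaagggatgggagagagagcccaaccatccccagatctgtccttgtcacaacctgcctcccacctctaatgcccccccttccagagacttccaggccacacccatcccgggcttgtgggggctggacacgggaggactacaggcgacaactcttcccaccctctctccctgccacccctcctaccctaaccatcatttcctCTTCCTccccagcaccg
Eng: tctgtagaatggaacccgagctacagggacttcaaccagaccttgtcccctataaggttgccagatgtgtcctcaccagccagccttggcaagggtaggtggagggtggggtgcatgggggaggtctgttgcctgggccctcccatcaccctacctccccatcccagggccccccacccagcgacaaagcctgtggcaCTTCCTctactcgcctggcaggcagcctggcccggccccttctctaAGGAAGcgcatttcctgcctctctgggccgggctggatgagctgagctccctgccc
Flt4: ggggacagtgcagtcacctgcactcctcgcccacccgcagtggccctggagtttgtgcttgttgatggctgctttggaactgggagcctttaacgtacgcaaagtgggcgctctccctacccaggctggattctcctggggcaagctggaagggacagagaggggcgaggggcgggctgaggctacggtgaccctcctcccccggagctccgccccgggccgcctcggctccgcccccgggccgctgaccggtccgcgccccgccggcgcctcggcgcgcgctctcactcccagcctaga
Tie1 and Eng each held 2 ETS motifs, Tek held 1 GATA motif and no ETS motif, and Flt4 held neither. Car4 and Clec14a, which also lay above the other 13 arrays on both, had windows with neither motif, which are not shown. Of the 41 listed members, 23 had a window in the RefSeq table. They include Robo4, which had no array probe and whose window held 1 ETS motif. At least 1 window held the ETS motif for 14 of these 23 (60.9%), against 10383 of 27025 genes in the table (38.4%). The GATA motif was found for 3 of 23 members (13%), against 8.58% of the genes. No ETS match overlapped a GATA match. A match describes these letters in this window and is not a site known to be bound.

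No member passed the threshold of limma's test (Benjamini-Hochberg adjusted p under 0.05 over 34401 genes) in any comparison of diets. At 20 ppm against control, 0 of 40 members and 0% of all genes were called, and 0 members had an unadjusted p under 0.05. At 500 ppm, 0 members and 0% of all genes were called, and Prox1 alone had an unadjusted p under 0.05. At 2500 ppm, 0 members and 0% of all genes were called, with Sox18 alone under 0.05 unadjusted. At 5000 ppm, 0 members were called against 0.0407% of all genes (14 genes), with Flt4 alone under 0.05 unadjusted. Genes with an unadjusted p under 0.05 made up 1.48%, 2.84%, 8.49% and 5.14% of all genes at 20, 500, 2500 and 5000 ppm.

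The same test gave 0 members for 5000 against 2500 ppm, where 0% of all genes were called and Prox1 alone had an unadjusted p under 0.05 (5.04% of all genes). A trend over the 5 dose ranks gave 0 members against 0.142% of all genes (49 genes). Flt4, Sox17, Selp and Tek had an unadjusted p under 0.05 on the trend, 4 of 40, and 9.22% of all genes did. An F test over the 5 diets gave 0 members against 0.0407% of all genes, with Flt4 alone under 0.05 unadjusted (5.36% of all genes). The smallest adjusted p of any member was 0.210, for Flt4 on the trend (limma).

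The median log2 fold change of the members was 0.09 at 20 ppm (all genes -0.03), 0.02 at 500 ppm (all genes 0.12), -0.11 at 2500 ppm (all genes 0.05) and -0.03 at 5000 ppm (all genes 0.07). At 5000 against 2500 ppm the median was 0.08 (all genes 0.03). Fold changes were above 0 for 26, 21, 14 and 16 of the 40 members at 20, 500, 2500 and 5000 ppm, and for 25 at 5000 against 2500 ppm, where the shares of all genes above 0 were 44.4%, 70.4%, 57.3%, 60.6% and 55.3%. Members above the median of all genes numbered 29 at 20 ppm, 11 at 500 ppm, 11 at 2500 ppm, 13 at 5000 ppm, 24 at 5000 against 2500 ppm and 10 on the trend, of 40 each. The medians of the members moved with single arrays. Without control mouse 1 they were -0.014 at 20 ppm, -0.064 at 500 ppm, -0.16 at 2500 ppm and -0.093 at 5000 ppm. In that fit 31 of 40 members were negative at 2500 ppm, against 26 with all arrays. Without control mouse 2 the 5000 ppm median was 0.042. The 2500 ppm median was lowest, at -0.18, without 2500 ppm mouse 1. Without 2500 ppm mouse 3, the median was -0.024 at 2500 ppm and -0.00049 at 5000 against 2500 ppm, and without 5000 ppm mouse 2 the last was 0.18. The 4 doses were set against the same 3 control arrays, so their values are not independent of each other.

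Some members had groups that did not overlap, with all 3 arrays of a dose on one side of all 3 control arrays. At 5000 ppm, Calcrl, Egfl7 and Vwf lay above control (3 of 40, against 12.9% of all genes) and Flt4 and Selp below (2 of 40, against 5% of all genes). At 2500 ppm, Calcrl lay above (8.83% of all genes) and Aplnr, Clec14a, Ednrb, Gja4, Sox17 and Tmem100 below (6 of 40, against 4.72% of all genes). At 500 ppm, Calcrl, Ptprb and Vwf lay above (4.53%) and Tmem100 below (2.15%). At 20 ppm, Hpgd lay above (1.5%) and no member below (4.34%). Between the highest doses, Aplnr, Egfl7, Esam and Tmem100 lay higher at 5000 than at 2500 ppm (8.13% of all genes) and Prox1 lower (7.1%). These statements are about the used probes. A second kept probe overlapped between the groups for Selp at 5000 ppm, for Sox17 at 2500 ppm and for Prox1 between the highest doses, and 1 of the 2 further Ednrb probes did so at 2500 ppm.

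**Figure D2:**
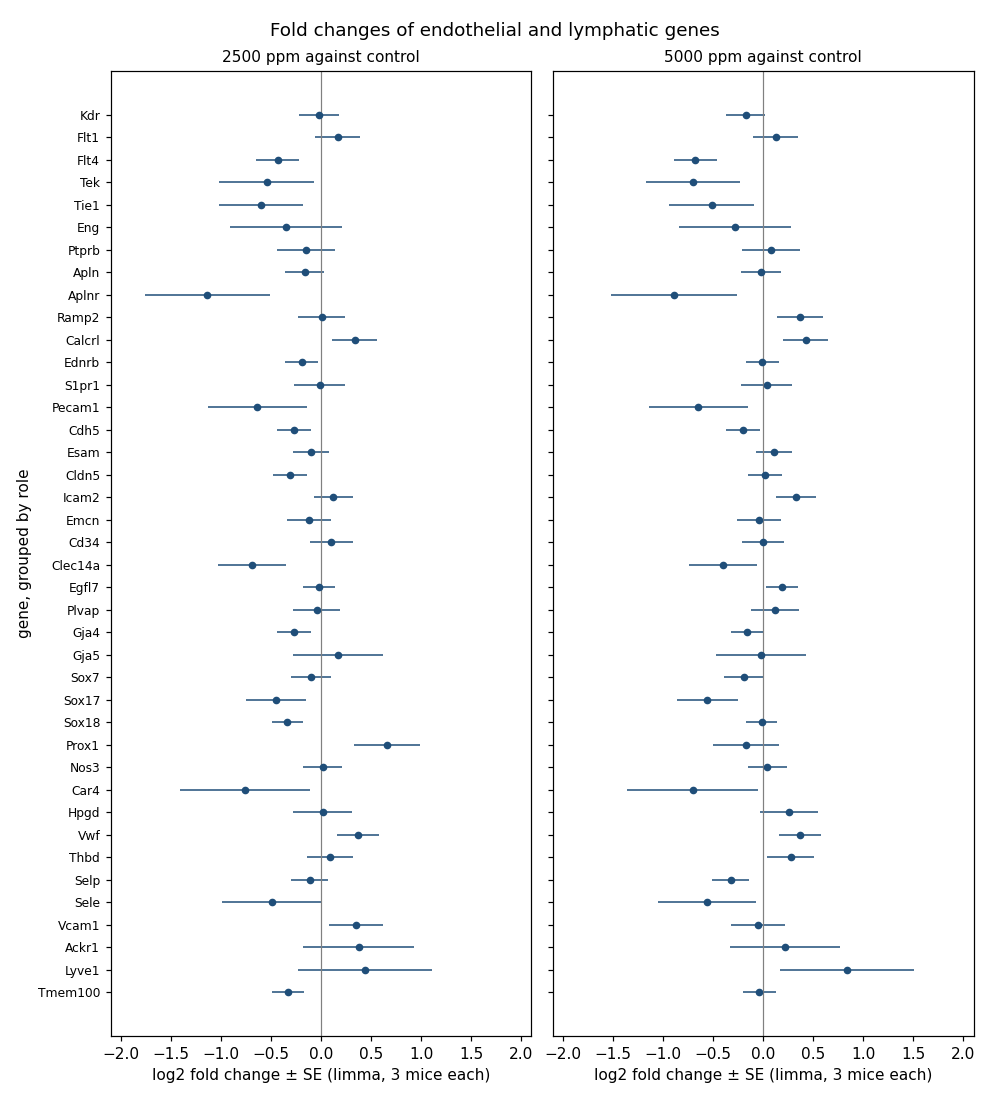
Log2 fold change ± SE from limma for each of the 40 genes (down, by role) at 2500 ppm against control (left) and 5000 ppm against control (right), 3 mice per diet. The lowest estimate in both panels is that of Aplnr, -1.13 and -0.89, and none passed the threshold.

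Among the growth factor receptors, none of the 7 passed the test at any dose, and 6 of 7 fold changes were negative at 2500 ppm and 5 of 7 at 5000 ppm. Without 20 ppm mouse 1 and control mouse 1, Eng was positive at both doses (0.34 and 0.40), and Tek had 0.03 at 2500 ppm and -0.12 at 5000 ppm. Flt4 encodes VEGFR-3, the VEGF-C receptor of lymphatic endothelium. It had -2.49, -3.04 and -3.35 on the control arrays, -2.58, -2.86 and -3.01 at 20 ppm and -3.54, -3.48 and -3.14 at 500 ppm. At 2500 ppm Flt4 had -3.38, -3.58 and -3.22, and at 5000 ppm -3.71, -3.48 and -3.73. All 3 arrays at 5000 ppm lay below every control array, while the 500 and 2500 ppm arrays overlapped with control mouse 3. The log2 fold change of Flt4 was -0.68 ± 0.22 (SE) at 5000 ppm with a limma adjusted p of 0.78, and -0.43 ± 0.22 at 2500 ppm with 0.641. The trend of Flt4 was -0.19 ± 0.05 per dose rank.

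Tek encodes TIE2, the receptor of the angiopoietins. The control arrays had 2.13, 0.58 and 0.22, the 20 ppm arrays 2.41, 0.90 and 0.82 and the 500 ppm arrays 0.51, 0.50 and 0.48. At 2500 ppm Tek had 0.55, 0.54 and 0.21, and at 5000 ppm 0.64, -0.08 and 0.28. Mouse 1 stood far above mice 2 and 3 in both the 20 ppm and the control diet, and the other 13 arrays spanned -0.08 to 0.90. For Tek the log2 fold change was -0.70 ± 0.47 at 5000 ppm (limma adjusted p 0.967) and -0.54 ± 0.47 at 2500 ppm (0.862).

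Tie1, an orphan receptor that pairs with TIE2, showed the same 2 arrays high. Its control values were 2.14, 0.91 and 0.84, with 2.34, 0.80 and 0.84 at 20 ppm, 1.17, 0.89 and 0.73 at 500 ppm, 1.05, 0.65 and 0.39 at 2500 ppm and 0.77, 0.45 and 1.12 at 5000 ppm. Eng, endoglin, a co-receptor for ligands of the TGF-beta family, had 3.47, 1.35 and 1.48 in controls, 3.31, 1.95 and 2.34 at 20 ppm, 2.42, 1.70 and 1.30 at 500 ppm, 1.97, 1.38 and 1.91 at 2500 ppm and 1.61, 1.24 and 2.61 at 5000 ppm. For both genes the dosed groups overlapped with control at every dose. The log2 fold change at 5000 ppm was -0.52 ± 0.42 for Tie1 and -0.28 ± 0.56 for Eng.

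Kdr encodes VEGFR-2, the main signalling receptor for VEGF-A. Its values were 4.93, 5.59 and 5.5 in controls, 5.07, 5.07 and 5.10 at 20 ppm, 5.73, 5.34 and 5.63 at 500 ppm, 5.56, 5.36 and 5.06 at 2500 ppm and 5.39, 5.04 and 5.07 at 5000 ppm. Here control mouse 1 was the lowest of all arrays, and the groups overlapped at every dose. Kdr had a log2 fold change of -0.18 ± 0.20 at 5000 ppm (limma adjusted p 0.97) and -0.02 ± 0.20 at 2500 ppm (0.996). Flt1, the VEGF receptor that binds VEGF-A but signals weakly, averaged 5.41 ± 0.26 at 5000 ppm and 5.29 ± 0.42 in controls (SD, n = 3 each). Ptprb, VE-PTP, the phosphatase that acts on TIE2, averaged 6.03 ± 0.08 at 5000 ppm and 5.96 ± 0.20 in controls. Mouse 3 at 2500 ppm, at 4.91, was the lowest array for Ptprb.

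Of the 6 peptide and lipid ligands and receptors, the apelin receptor Aplnr varied most between arrays. Aplnr had 0.90, -1.21 and -1.35 in controls, 1.01, -1.24 and -1.5 at 20 ppm and -1.38, -1.37 and -0.96 at 500 ppm. The 2500 ppm arrays had -1.78, -1.61 and -1.66, and the 5000 ppm arrays -1.26, -1.58 and -1.48. Mouse 1 of the 20 ppm and control diets was more than 1 log2 unit above every other array, and the 2500 ppm arrays all lay below the controls. This gave Aplnr a log2 fold change of -0.89 ± 0.63 at 5000 ppm (limma adjusted p 0.967) and -1.13 ± 0.63 at 2500 ppm (0.69). Apln, its ligand apelin, averaged 2.66 ± 0.27 at 5000 ppm and 2.68 ± 0.36 in controls.

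Calcrl, the receptor that responds to adrenomedullin when paired with RAMP2, was above control on all 3 arrays at 500, 2500 and 5000 ppm. Its control values were 5.34, 5.56 and 5.65. The dosed arrays had 5.05, 6.07 and 5.96 at 20 ppm, 6.11, 5.84 and 6.0 at 500 ppm, 5.97, 5.90 and 5.68 at 2500 ppm and 5.94, 5.99 and 5.88 at 5000 ppm. Only 20 ppm overlapped with control for Calcrl, through 20 ppm mouse 1, the lowest array of all. The log2 fold changes from limma were 0.47 ± 0.23 at 500 ppm, 0.34 ± 0.23 at 2500 ppm and 0.42 ± 0.23 at 5000 ppm, with adjusted p of 0.941, 0.779 and 0.964. Ramp2 itself averaged 7.99 ± 0.18 at 5000 ppm and 7.62 ± 0.32 in controls on the used probe. S1pr1, the receptor for sphingosine 1-phosphate that tightens the barrier, averaged 3.96 ± 0.23 at 5000 ppm and 3.92 ± 0.44 in controls. Ednrb, the type B endothelin receptor, averaged 0.10 ± 0.12 at 5000 ppm and 0.11 ± 0.06 in controls.

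Junction and surface proteins gave 9 of 12 negative fold changes at 2500 ppm and 7 of 12 at 5000 ppm, and none passed the test. Pecam1, CD31, is an adhesion protein found on nearly all endothelial cells. Its values were 1.15, -0.61 and -0.86 in controls, 1.19, -0.42 and -0.44 at 20 ppm and -0.73, -0.86 and -0.47 at 500 ppm. Pecam1 had -0.66, -0.73 and -0.83 at 2500 ppm and -0.45, -1.05 and -0.76 at 5000 ppm. All arrays except 20 ppm mouse 1 and control mouse 1 were below 0, and the groups overlapped at every dose. Pecam1 had a log2 fold change of -0.65 ± 0.50 at 5000 ppm (limma adjusted p 0.967) and -0.64 ± 0.50 at 2500 ppm (0.828).

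Cdh5, VE-cadherin, the adherens junction protein of endothelium, did not share that pattern. It had 4.49, 4.90 and 4.91 in controls, 4.56, 4.86 and 4.94 at 20 ppm, 4.94, 4.69 and 4.75 at 500 ppm, 4.67, 4.47 and 4.35 at 2500 ppm and 4.72, 4.38 and 4.61 at 5000 ppm. Mouse 1 was the lowest of its diet in the 20 ppm and control groups, and all diets overlapped with control. The log2 fold change of Cdh5 was -0.20 ± 0.17 at 5000 ppm (limma adjusted p 0.968) and -0.27 ± 0.17 at 2500 ppm (0.746).

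Clec14a, an endothelial C-type lectin, had 1.54, 0.42 and 0.17 in controls, 1.38, 0.56 and 0.28 at 20 ppm, 0.59, 0.21 and 0.12 at 500 ppm, -0.03, 0.17 and -0.08 at 2500 ppm and 0.36, 0.04 and 0.51 at 5000 ppm. The highest 2500 ppm array of Clec14a equalled the lowest control array to 2 decimals and lay just below it. Its log2 fold change was -0.41 ± 0.34 at 5000 ppm (limma adjusted p 0.968) and -0.69 ± 0.34 at 2500 ppm (0.637). Cldn5, claudin-5, the main tight junction claudin of endothelium, had 6.25, 6.11 and 5.97 in controls, 6.13, 6.06 and 6.09 at 20 ppm, 6.10, 5.79 and 5.82 at 500 ppm, 5.99, 5.56 and 5.84 at 2500 ppm and 6.26, 5.84 and 6.29 at 5000 ppm. The 2500 ppm mice gave the lowest mean of Cldn5, with an overlap of 1 array with control. Cldn5 had a log2 fold change of 0.02 ± 0.17 at 5000 ppm (limma adjusted p 0.993) and -0.31 ± 0.17 at 2500 ppm (0.674).

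Egfl7, a secreted angiogenic factor, averaged 8.10 ± 0.19 in controls, 8.08 ± 0.03 at 2500 ppm and 8.28 ± 0.04 at 5000 ppm. Its 5000 ppm arrays, 8.24, 8.30 and 8.32, lay above all control and all 2500 ppm arrays by small margins, and the log2 fold change against control was 0.19 ± 0.16. Gja4, connexin 37, averaged 2.83 ± 0.06 at 2500 ppm and 3.1 ± 0.22 in controls. Icam2, an adhesion molecule present on resting endothelium, had a log2 fold change of 0.33 ± 0.20 at 5000 ppm. Emcn, Cd34, Plvap, Esam and Gja5 had log2 fold changes between -0.04 (Emcn) and 0.12 (Plvap) at 5000 ppm.

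**Figure D3:**
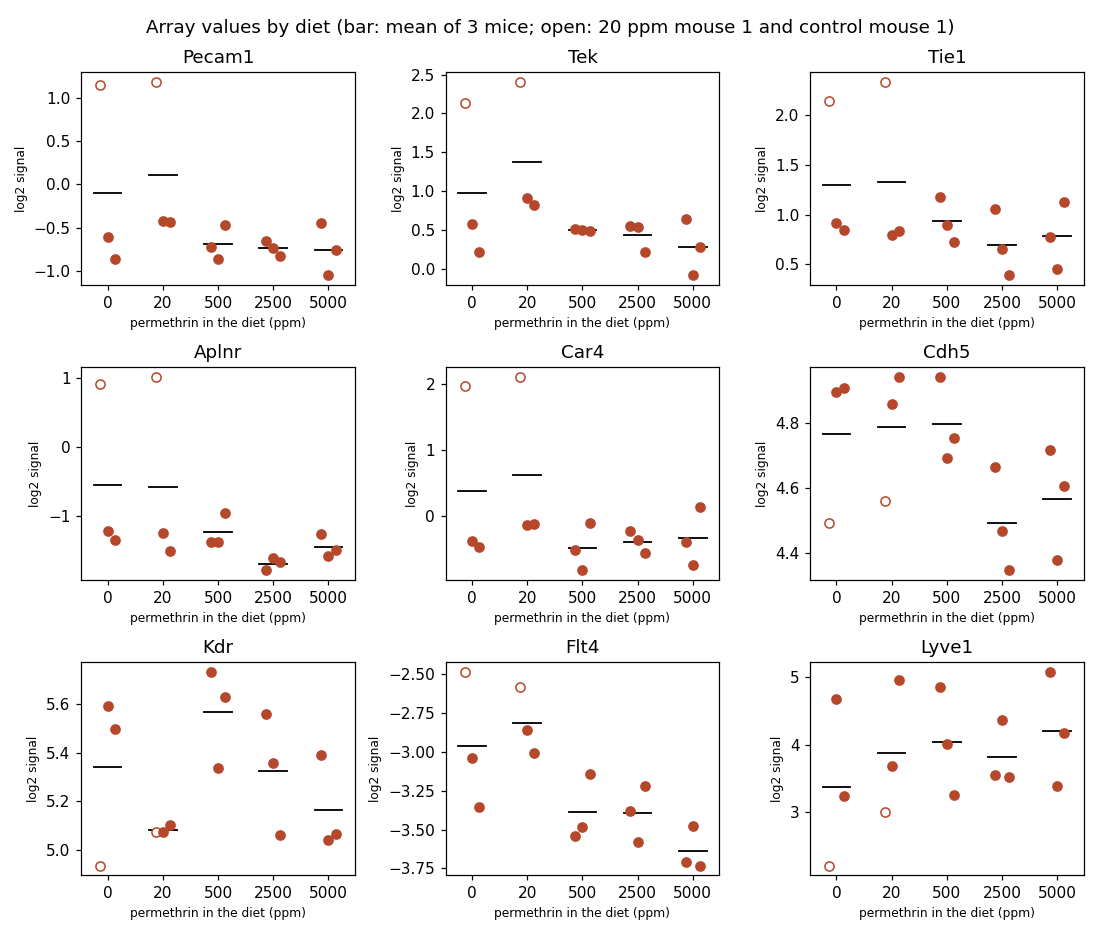
Log2 signal of 9 of the genes on each array (points) by permethrin in the diet in ppm, with the mean of 3 mice as a bar, and 20 ppm mouse 1 and control mouse 1 as open circles. For Pecam1, Tek, Tie1, Aplnr and Car4 the open circles lie above all other points, and for Cdh5 and Lyve1 they are the lowest of their own diets.

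The 4 transcription factors had 3 of 4 negative fold changes at 2500 ppm and 4 of 4 at 5000 ppm, and none passed the test. Prox1 sets lymphatic identity. Its values were -4.10, -3.37 and -2.85 in controls, -2.96, -3.01 and -3.25 at 20 ppm, -2.72, -2.46 and -2.91 at 500 ppm, -2.94, -2.74 and -2.66 at 2500 ppm and -3.18, -3.30 and -4.36 at 5000 ppm. The 5000 ppm arrays all lay below the 2500 ppm arrays but overlapped with control, which held the second lowest array. For Prox1 the log2 fold change was -0.83 ± 0.33 at 5000 against 2500 ppm with a limma adjusted p of 0.93. Against control it was -0.17 ± 0.33 at 5000 ppm (0.97), 0.66 ± 0.33 at 2500 ppm (0.641) and 0.74 ± 0.33 at 500 ppm (0.941), again as limma adjusted p. A second kept Prox1 probe for the same transcript gave 0.34 at 5000 ppm and 0.31 at 2500 ppm against control. Its arrays, -3.29, -2.76 and -3.59 at 5000 ppm and -3.51, -3.58 and -2.64 at 2500 ppm, overlapped.

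Sox18, a SOXF factor with a role in lymphatic development, had 2.86, 3.13 and 3.24 in controls, 2.90, 3.05 and 3.16 at 20 ppm, 3.03, 3.08 and 3.12 at 500 ppm, 2.59, 2.62 and 3.02 at 2500 ppm and 3.07, 2.98 and 3.13 at 5000 ppm. At 2500 ppm 2 of 3 arrays lay below all others, and mouse 3 overlapped with control. Its log2 fold change was -0.02 ± 0.15 at 5000 ppm (limma adjusted p 0.994) and -0.34 ± 0.15 at 2500 ppm (0.579). Sox17, the SOXF factor of arteries, had 1.16, 0.43 and 0.66 in controls, 0.40, 0.08 and 0.42 at 2500 ppm and -0.16, -0.24 and 0.97 at 5000 ppm. Mouse 3 at 5000 ppm stood among the controls, whereas mice 1 and 2 were the lowest arrays for Sox17, and the log2 fold change at 5000 ppm was -0.56 ± 0.30. Sox7 averaged 2.04 ± 0.15 at 5000 ppm and 2.23 ± 0.39 in controls.

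Enzymes and coagulation proteins gave 4 of 5 positive fold changes at both 2500 and 5000 ppm, and none passed the test. The exception in sign was Car4, carbonic anhydrase IV, an enzyme on the surface of lung capillaries. Car4 had 1.97, -0.37 and -0.46 in controls, 2.11, -0.13 and -0.12 at 20 ppm, -0.51, -0.82 and -0.11 at 500 ppm, -0.23, -0.36 and -0.56 at 2500 ppm and -0.39, -0.74 and 0.14 at 5000 ppm. Without mouse 1 of the 20 ppm and control diets, the arrays spanned -0.82 to 0.14, and the groups overlapped at every dose. Car4 had a log2 fold change of -0.71 ± 0.65 at 5000 ppm (limma adjusted p 0.969) and -0.76 ± 0.65 at 2500 ppm (0.858).

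Vwf, von Willebrand factor, which binds platelets at sites of injury, had 4.90, 4.76 and 4.82 in controls, 4.65, 5.37 and 5.25 at 20 ppm, 5.34, 4.97 and 5.11 at 500 ppm, 5.48, 5.26 and 4.87 at 2500 ppm and 5.39, 5.13 and 5.05 at 5000 ppm. The 500 and 5000 ppm arrays lay above all controls, and 1 of the 2500 ppm arrays overlapped with them. The log2 fold change of Vwf was 0.36 ± 0.21 at 5000 ppm (limma adjusted p 0.964) and 0.37 ± 0.21 at 2500 ppm (0.704). Thbd, thrombomodulin, which turns thrombin towards anticoagulant activity, averaged 6.05 ± 0.04 at 5000 ppm and 5.78 ± 0.33 in controls. Nos3, the endothelial nitric oxide synthase, averaged 2.03 ± 0.15 at 5000 ppm and 1.99 ± 0.25 in controls. Hpgd, the enzyme that breaks down prostaglandins, averaged 3.98 ± 0.26 in controls, 4.39 ± 0.16 at 20 ppm and 4.24 ± 0.10 at 5000 ppm.

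Leukocyte traffic genes had 3 of 4 negative fold changes at 5000 ppm and 2 of 4 at 2500 ppm, and none passed the test. Selp, P-selectin, which endothelium and platelets present to rolling leukocytes, had -2.63, -3.04 and -2.91 in controls, -2.68, -2.47 and -2.96 at 20 ppm, -2.82, -2.80 and -3.17 at 500 ppm, -2.88, -3.28 and -2.77 at 2500 ppm and -3.16, -3.20 and -3.20 at 5000 ppm. The 3 arrays at 5000 ppm lay close together and below every control array. Against control, the log2 fold change of Selp was -0.33 ± 0.18 at 5000 ppm (limma adjusted p 0.964) and -0.12 ± 0.18 at 2500 ppm (0.953). A second kept Selp probe gave 0.01 and 0.38 at these doses.

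Sele, E-selectin, which appears on activated endothelium, had -5.14, -4.26 and -3.73 in controls, -5.60, -5.00 and -5.34 at 20 ppm, -4.86, -5.07 and -2.95 at 500 ppm, -5.11, -4.37 and -5.12 at 2500 ppm and -4.82, -5.18 and -4.82 at 5000 ppm. The highest array was 500 ppm mouse 3, and 2 of 3 arrays at each of 20, 2500 and 5000 ppm were not well above background. Sele had a log2 fold change of -0.56 ± 0.49 at 5000 ppm (limma adjusted p 0.969) and -0.49 ± 0.49 at 2500 ppm (0.893). The filter kept this probe only through the control and 500 ppm diets, so lower values at the other doses were favoured in advance. Its negative fold changes, also within the counts of leukocyte traffic genes, therefore do not show a fall. Vcam1, the endothelial ligand of leukocyte VLA-4, averaged 2.62 ± 0.13 at 5000 ppm and 2.67 ± 0.55 in controls. Ackr1, a chemokine-binding receptor of venules, averaged -2.23 ± 0.77 at 5000 ppm and -2.45 ± 0.23 in controls.

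Lyve1, the hyaluronan receptor of lymphatic endothelium, which some macrophages also carry, varied widely within diets. It had 2.20, 4.67 and 3.23 in controls, 3.00, 3.67 and 4.96 at 20 ppm, 4.85, 4.01 and 3.26 at 500 ppm, 3.55, 4.36 and 3.52 at 2500 ppm and 5.08, 3.38 and 4.17 at 5000 ppm. The groups overlapped at every dose, and control mouse 1 was the lowest array. The log2 fold change of Lyve1 was 0.84 ± 0.67 at 5000 ppm (limma adjusted p 0.967) and 0.44 ± 0.67 at 2500 ppm (0.948). At 5000 ppm the value was 0.25 without control mouse 1 and 1.49 without control mouse 2.

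Tmem100, a membrane protein induced in endothelium by BMP9 and BMP10, had 3.37, 3.16 and 3.18 in controls, 3.64, 3.22 and 3.00 at 20 ppm, 3.02, 2.97 and 3.09 at 500 ppm, 3.03, 2.87 and 2.83 at 2500 ppm and 3.28, 3.07 and 3.25 at 5000 ppm. All 500 and 2500 ppm arrays lay below all controls, while the 5000 ppm arrays overlapped with them. Against control, the log2 fold change of Tmem100 was -0.04 ± 0.16 at 5000 ppm (limma adjusted p 0.985) and -0.33 ± 0.16 at 2500 ppm (0.629).

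Mouse 1 of the 20 ppm diet and mouse 1 of the control diet carried most of the spread in several members. On both arrays, 9 members lay above all 13 others (Flt4, Tek, Tie1, Eng, Aplnr, Pecam1, Clec14a, Car4 and Tmem100), as did 6.65% of all genes. Ramp2, Calcrl, Cd34, Egfl7, Sox7, Thbd and Lyve1 lay below all 13 others on both, 7 members, as did 20.8% of all genes. A difference of more than 1 log2 unit above the median of the other 13 arrays was seen on both arrays for 7 of 40 members (17.5%) and 1391 of 34401 genes (4.04%). Lyve1 was the single member more than 1 unit below on both (2.5%, against 0.471% of all genes). These counts describe 2 arrays that were known to stand apart, and no test was made on them.

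The largest such differences were those of Car4, 2.48 on 20 ppm mouse 1 and 2.34 on control mouse 1, and Aplnr, 2.39 and 2.28. Pecam1 was higher by 1.92 and 1.88, Tek by 1.90 and 1.62, Eng by 1.61 and 1.78, Tie1 by 1.5 and 1.31, and Clec14a by 1.18 and 1.33. Among the other members, Kdr differed by -0.29 and -0.42, Cdh5 by -0.16 and -0.22, and Calcrl by -0.89 and -0.60, in the opposite direction. On the same 2 arrays the list mean of alveolar type 2 markers was 5.58 and 5.47, against 4.78 to 5.25 on the other 13. The list mean of alveolar type 1 markers was 5.20 and 5.04, against 5.40 to 5.72. Of the further vessel lists described below, 19 capillary and venous markers had list means of 3.31 and 3.13, against 3.47 to 3.69. The 10 lymphatic markers had 1.36 and 1.37, against 1.38 to 1.78. The vascular signalling and transcription genes had 2.55 and 2.46, against 2.42 to 2.82. Single genes of these lists went in both directions, as in these examples chosen after their values were seen. Ccl21a had 3.70 and 3.43 (at most 2.33 on the other 13) and Id3 3.23 and 3.52 (at most 2.53). Mmrn1 had 0.41 and 0.25 (at least 0.60 on the other 13) and Foxo1 2.08 and 1.99 (at least 2.47). Of all genes, 6.65% lay above and 20.8% below the other 13 arrays on both. These arrays had 82.3% and 81.7% of spots well above background, more than any other array except 500 ppm mouse 3. The part of these measures in the values of the members was not tested.

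Probes of one gene differed in direction on these arrays for Ramp2, Vcam1 and Cd34. Ramp2 has 2 kept probes for the same transcript. The used Ramp2 probe differed from the median of the other 13 arrays by -0.57 on 20 ppm mouse 1 and -0.52 on control mouse 1, whereas the second differed by 1.93 and 1.96. Ednrb has 3 kept probes, each annotated to another transcript of the gene. The used Ednrb probe differed by 0.48 and 0.04, the second by 2.65 and 2.16, and the third by 0.29 and 0.12. The used Vcam1 probe differed by -0.38 and -0.88 and the second by 0.38 and 0.32, and the used Cd34 probe by -0.60 and -0.54 and the second by 0.32 and 0.60. All 3 Flt1 probes were lower on both arrays, and both kept Selp probes were higher. The second Ramp2 probe gave a log2 fold change of -0.26 at 5000 ppm against control where the used probe gave 0.36, and neither passed the test.

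Of the 40 members, 10 had several kept probes, and Ramp2 and Ednrb were the 2 among them with a probe more than 1 unit above the other arrays on both. Across all genes, 6791 had several kept probes, 1391 of these had such a probe, and 1040 of the 1391 (74.8%) had another probe that was lower than the other arrays on both. The 9 members that lay above all other arrays on both have a single probe each, so that a second probe could not be set beside them.

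**Figure D4:**
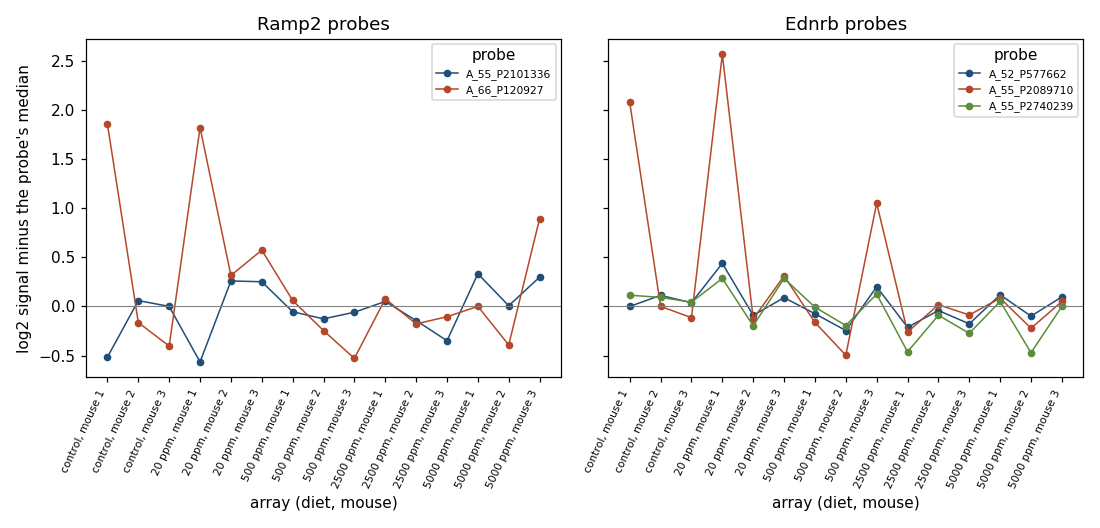
Log2 signal of each kept probe of Ramp2 (left) and Ednrb (right) on the 15 arrays, minus the probe's own median. One probe of each gene peaks on 20 ppm mouse 1 and control mouse 1, where the used Ramp2 probe is lowest.

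Leaving out these 2 arrays moved the estimates of the members that were high on them. Without them, the log2 fold change at 5000 ppm was -0.02 ± 0.18 for Pecam1, -0.16 ± 0.16 for Aplnr and -0.12 ± 0.20 for Tek. Car4 gave 0.09 ± 0.26, Tie1 -0.09 ± 0.23, Eng 0.40 ± 0.42 and Clec14a 0.01 ± 0.19 at 5000 ppm. Car4, Eng and Clec14a thereby changed sign, and the estimates of Pecam1, Aplnr and Tek moved towards 0. Flt4 stayed negative, at -0.44 ± 0.17 with a limma adjusted p of 0.876, and so did Cdh5, at -0.34 ± 0.14, and Kdr, at -0.38 ± 0.18. At 2500 ppm the values without the 2 arrays were -0.01 ± 0.18 for Pecam1, -0.41 ± 0.16 for Aplnr, 0.03 ± 0.26 for Car4 and -0.41 ± 0.14 for Cdh5. No member passed the threshold in limma's test in any comparison of diets without these arrays. Of all genes, 0 passed at 2500 ppm and 6 at 5000 ppm in that fit.

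Without all 4 arrays that stood apart, 1 member passed the threshold, Sox18 at 5000 against 2500 ppm, with a log2 fold change of 0.46 ± 0.09 and a limma adjusted p of 0.0449. In that fit 944 of all genes were called, and 1 of the 3 arrays at 2500 ppm was left out. With all arrays the same value was 0.32 ± 0.15 (limma adjusted p 0.983).

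**Figure D5:**
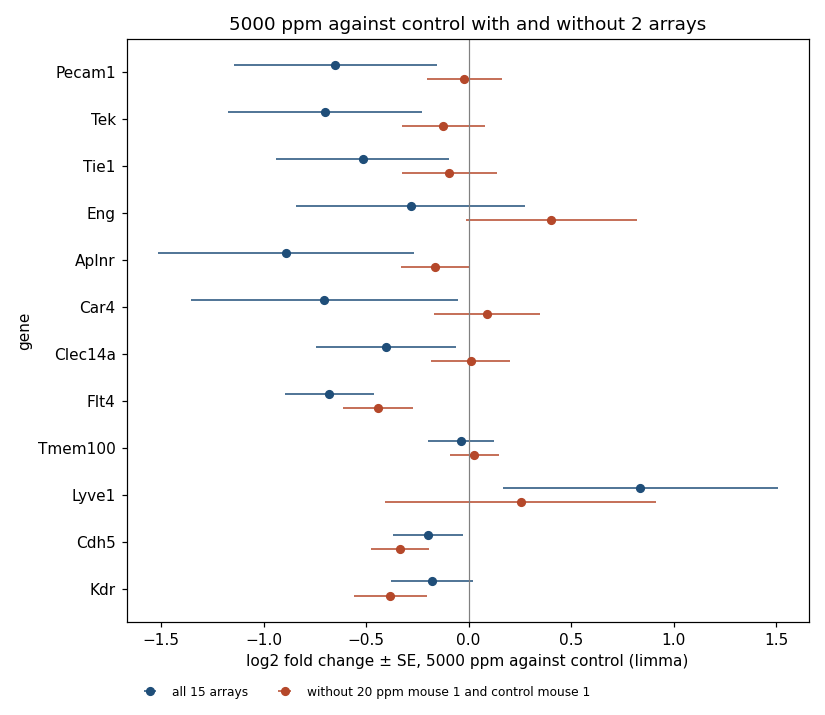
Log2 fold change ± SE from limma at 5000 ppm against control for 12 of the genes, with all 15 arrays (blue) and without 20 ppm mouse 1 and control mouse 1 (red). The red estimates of Pecam1, Tie1, Clec14a, Car4 and Tmem100 lie within 0.1 of 0, and those of Flt4, Cdh5 and Kdr remain below it.

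Slide bears on the comparisons of 2500 and 5000 ppm with control, because the arrays of these diets and of the controls were on different slides. With slide as a random block, no member passed limma's test, and the median log2 fold change of the members was -0.06 at 2500 ppm and 0.01 at 5000 ppm. Flt4 had -0.80 ± 0.28 at 5000 ppm in that fit, and Calcrl 0.41 ± 0.30. With slide as a fixed block, an estimate that rests on 500 ppm mouse 3, Sele alone passed at 2500 and 5000 ppm, where 5055 and 4952 of all genes did. Sele then had -2.5 ± 0.58 and -2.57 ± 0.58, and its value on 500 ppm mouse 3 was -2.95, the highest of all arrays. The filter kept the Sele probe only through the control and 500 ppm diets. Within slide 1, the 20 ppm and 500 ppm mice gave no called member against control, and Pecam1 had 0.22 ± 0.58 and -0.69 ± 0.65. Within slide 2, 5000 against 2500 ppm gave no called member, and Prox1 had -0.83 ± 0.33 (limma adjusted p 0.704).

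Other genes of the vessel wall were described from lists that do not overlap with the 41 members. Of 50 genes of vascular signalling and transcription, 48 were measured and 0 passed the threshold in any contrast, with median log2 fold changes of 0.01 at 5000 ppm and -0.10 at 2500 ppm. Of 19 further capillary and venous markers, all were measured and 0 passed, with medians of 0.24 and 0.10. Of 10 further lymphatic markers, all were measured and 0 passed, with medians of 0.16 and 0.31. The smallest F test p-values of the first list belonged to Sphk1, Bmp6 and Ace.

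Sphk1, the kinase that makes sphingosine 1-phosphate, the ligand of S1pr1, had 0.98, 2.85 and 2.0 in controls, 2.77, 2.65 and 3.12 at 20 ppm, 3.38, 2.89 and 2.79 at 500 ppm, 3.47, 3.02 and 2.97 at 2500 ppm and 3.25, 3.20 and 3.74 at 5000 ppm. The 2500 and 5000 ppm arrays of Sphk1 all lay above every control array (8.83% and 12.9% of all genes), of which mouse 1 was the lowest. Its log2 fold change was 1.45 ± 0.37 at 5000 ppm with a limma adjusted p of 0.519, and 1.21 ± 0.37 at 2500 ppm with 0.326. Bmp6, a bone morphogenetic protein made by endothelium, had 2.13, 0.63 and 0.50 in controls, 1.91, 0.91 and 0.67 at 20 ppm and 1.06, 0.45 and 0.54 at 500 ppm. Bmp6 had 0.37, -0.15 and -0.30 at 2500 ppm and 0.33, 0.14 and 0.36 at 5000 ppm. The arrays of these 2 doses lay below every control array (4.72% and 5% of all genes). As in Tek and Pecam1, mouse 1 of the 20 ppm and control diets was the highest of the arrays of Bmp6. Its log2 fold change was -0.80 ± 0.41 at 5000 ppm (limma adjusted p 0.964) and -1.11 at 2500 ppm, the lowest of the list at that dose. Ace, angiotensin-converting enzyme of the capillary surface, had a log2 fold change of -0.23 ± 0.21 at 5000 ppm (limma adjusted p 0.969) and -0.49 ± 0.21 at 2500 ppm (0.534).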

How the data were processed

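Lung RNA of 15 mice, 3 per diet, was read on 1-colour arrays. The authors deposited scanner output of Agilent Feature Extraction (version 10.7.3.1 per the file headers), with a linear intensity per spot from which background was subtracted. Their deposited table of log2 values matches that processed signal up to 1 constant per array.

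Control and outlier spots were left out, spots of a probe were averaged, and log2 values were set to 0 at each array's 75th percentile. Of 56605 probes, 43154 were kept, being well above background in at least 50% of their spots on all 3 arrays of a diet. Probes were named by RefSeq accession (GRCm38.p6). This left 34401 features, called genes here, of which 19289 had a gene symbol. Each of the others was a single probe without a symbol, so shares of all genes include these probes. The limma package (3.58.1, under R 4.3.3) was fitted over all 15 arrays (10 residual degrees of freedom, default empirical Bayes, two-sided, Benjamini-Hochberg over all genes, threshold 0.05). The fit was also run on simulated arrays with independent noise. These had no slide effect and no arrays that stood apart, so they cannot show how the fit behaves under either. Fold changes are given with SE and levels with SD. Fold changes with adjusted p are given for 16 members, 8 fixed by name and the 8 others with the smallest p in the F test, and for Calcrl, chosen after its values were seen. Alternatives covered background correction, scaling, filters, probe choice, slide, replicate number, array weights and left-out arrays. Members and gene lists were chosen with earlier results of these data known.

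Replicate numbers of the control and 20 ppm diets correlated in all 3 pairs (r = 0.611, 0.260 and 0.165, deviations from diet means over all genes). Mice 2 and 3 of these diets correlated more across numbers (r = 0.375 and 0.373). Deviations cancel within a diet, so with mouse 1 apart in both diets, a positive r among mice 2 and 3 was favoured in advance. The r of 0.260 and 0.165 therefore do not show pairing by number. Replicate numbers of the other comparisons did not correlate in every pair. The number of arrays limits the precision.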

Additional observations from a re-analysis of the deposited data

How the results depend on the processing

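No member passed the threshold under most alternatives to the reported setting. The exceptions each gave 1 member. With slide as a fixed block this was Sele, at 2500 ppm, at 5000 ppm, on the trend and in the F test (log2 fold changes of -2.5 and -2.57 at these doses), where this block called 5055, 4952, 5494 and 2851 of all genes. With array weights it was Sox18 at 2500 ppm (-0.52) and at 5000 against 2500 ppm, and Flt4 on the trend and in the F test, with 955, 642, 749 and 887 of all genes called. Without all 4 arrays that stood apart it was Sox18 at 5000 against 2500 ppm. Leaving out each array in turn gave 0 to 0 members in every comparison. The fit with the replicate number as a replicate block gave 0 members in every comparison, including 20 ppm against control, and 1 gene at 2500 ppm.

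Log2 fold changes of named members changed sign with the processing, also where the reported value was as far from 0 as that of Car4 (-0.76 at 2500 ppm), and the cause was not tested. With normexp background correction, Selp was 0.091 at 2500 ppm and 0.038 at 5000 ppm, Sele 0.048 and 0.14, Prox1 0.21 at 5000 ppm, and Cldn5 -0.0027 at 5000 ppm. Quantile normalization gave Cldn5 -0.17 at 5000 ppm, and scaling to the array median gave Sox18 0.0054 at 5000 ppm. The mean of a gene's probes gave Selp 0.13 at 2500 ppm and Prox1 0.084 at 5000 ppm. Slide as a fixed block gave Selp 0.24 at 2500 ppm and 0.026 at 5000 ppm, and Prox1 0.15 at 5000 ppm. Array weights gave Lyve1 -0.17 at 2500 ppm and Tmem100 0.021 at 5000 ppm. Without 20 ppm mouse 1 and control mouse 1, Car4 was 0.033, Lyve1 -0.14 and Tek 0.033 at 2500 ppm, and Car4 was 0.089, Tmem100 0.028 and Clec14a 0.0091 at 5000 ppm. Without 500 ppm mouse 3 and 2500 ppm mouse 3, Kdr was 0.12 at 2500 ppm. Without all 4 arrays, Pecam1 was 0.038, Car4 0.12 and Tek 0.14 at 2500 ppm, with Car4 at 0.089, Tmem100 at 0.028 and Clec14a at 0.0091 at 5000 ppm.

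Leaving out single arrays moved the 2500 ppm value of Kdr between -0.22 and 0.12, Car4 between -1.18 and 0.033, Lyve1 between -0.14 and 1.09, Tek between -0.92 and 0.033 and Selp between -0.22 and 0.036. At 5000 ppm it moved Car4 between -1.12 and 0.089, Prox1 between -0.50 and 0.20, Tmem100 between -0.078 and 0.028, Sox18 between -0.12 and 0.063, Clec14a between -0.67 and 0.0091 and Cldn5 between -0.061 and 0.16. The upper values of Car4, Tek and Clec14a and the lower value of Lyve1 came without control mouse 1, as did those of Pecam1, -0.01 at 2500 ppm and -0.02 at 5000 ppm, against -1.01 and -1.03 without control mouse 3.

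Counts over all genes at 5000 ppm were 14 in the reported setting, 5 without control mouse 1, 33 without 500 ppm mouse 3 and 2500 ppm mouse 3, and 109 with array weights. Scaling to the array median gave 14 genes up and 19 down on the trend, against 31 up and 18 down, and set the median of all genes at 500 ppm to -0.11 in place of 0.12. The median over the members was -0.16 at 5000 ppm with quantile normalization, -0.21 at 500 ppm with the array median as scale, and 0.020 and 0.14 at 2500 and 5000 ppm with slide as a fixed block. Limits lie in 3 mice per diet, in the slide shared by diets, and in probes near background such as that of Sele.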

Other observations

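Among the further venous and capillary markers, Slc6a2, the noradrenaline transporter, which lung endothelium is known to carry, separated the dosed arrays from the controls. It was chosen after its values were seen. Slc6a2 had -1.40, -1.44 and -1.79 in controls, 0.27, 0.01 and -0.16 at 20 ppm, 0.06, -1.03 and -0.58 at 500 ppm, 0.66, 0.07 and -0.65 at 2500 ppm, and 0.23, -0.22 and 0.38 at 5000 ppm. All 12 dosed arrays lay above all 3 controls, with no order by dose. Dose by dose, 1.5%, 4.53%, 8.83% and 12.9% of all genes did so at 20, 500, 2500 and 5000 ppm. The share of genes that did so at every dose was not computed. Its log2 fold change was 1.67 ± 0.33 (SE) at 5000 ppm with a limma adjusted p of 0.199, and 1.58 ± 0.33 at 20 ppm with 1.0, so that it did not pass the threshold.

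Tbx1, a transcription factor found in lymphatic endothelium and also chosen after its values were seen, had a log2 fold change of 0.52 ± 0.18 at 5000 ppm (limma adjusted p 0.858) and 0.53 ± 0.18 at 2500 ppm (0.367). All 3 arrays at 5000 ppm (2.46, 2.84 and 2.82) and all 3 at 2500 ppm (2.77, 2.44 and 2.94) lay above all 3 controls (2.06, 2.12 and 2.37). Of all genes, 12.9% lay above control in this way at 5000 ppm and 8.83% at 2500 ppm.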
